A study of Mus musculus with 28 samples.

Results

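Expression of 33 genes of cholesterol and fatty acid metabolism was followed in CD4+ mouse T cells polarized to Th1 or Th17, in culture and after transfer into recipient mice. The genes were chosen by name as enzymes of sterol and fatty acid synthesis, their SREBP regulators and a few transporters, and each was read from the probe set with 1 gene symbol that had the highest mean. All 33 were measured, among 19938 genes in all. They comprise 6 genes of the mevalonate pathway, 10 from squalene to cholesterol, 4 of SREBP control, 3 of fatty acid synthesis, 4 desaturases, 3 elongases and 3 of sterol export and transport.

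Cells build cholesterol and fatty acids from acetyl-CoA, and dividing lymphocytes need both for new membrane. The transcription factors SREBP1 and SREBP2, made by Srebf1 and Srebf2, switch these genes on when membrane sterol is low. Scap carries the SREBPs to the compartment where they are cut and released, Insig1 holds Scap back when sterols are plentiful, and Insig1 is itself an SREBP target. Abca1 and Abcg1 export sterols and are induced through the LXR receptors when sterols accumulate, so they belong to the opposite arm of the same control.

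The T cells came from BwTRP1 Rag1-/- donors, which cannot rearrange antigen receptors of their own and carry a T cell receptor against TRP1, a pigment cell protein. They were activated with irradiated, peptide-pulsed C57/B6 splenocytes and polarized to Th1 with IL-12 and an antibody to IL-4, or to Th17 with IL-1, IL-6, IL-21, TGFβ2 and antibodies to IL-2, IL-4 and IFN-γ. IL-2 medium was given later to both, and IL-23 to the Th17 cultures. The Thy1.2+ cells then went into sublethally irradiated Thy1.1+ B6.PL recipients. At day 5 and day 15 they were regained from spleen and inguinal lymph nodes by CD4 enrichment and a Thy1.2 sort. Each sample was split, and one part was given antibodies against CD3 and CD28 for 2 h (restimulated) while the other was not. The recipients keep blood-forming cells of their own, and the cultures held antigen-presenting splenocytes.

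Each of the 28 samples has 1 array. Day 0 has 1 array per type and condition, day 5 has 3, and day 15 has 2 Th1 and 4 Th17 arrays per condition. Values are log2 RMA values, so a difference of 1 is a doubling, and a gene was called at an adjusted p under 0.05 in a limma fit of the 24 arrays after transfer. Whether replicates are separate mice is not in the labels. The p-values therefore cover the spread among these samples, which may be technical. The mean of 8 T cell markers lay between 12.08 and 12.51 on all arrays. The mean of 5 erythroid markers (Alas2, Slc4a1, Epor, Klf1, Ermap) was 6.74 to 7.31 at days 0 and 5, but 8.69 to 9.55 on unstimulated and 7.84 to 9.04 on restimulated day 15 arrays. The mean of 14 myeloid markers was 6.87 to 9.38 on Th17 and 6.43 to 7.00 on Th1 arrays. The mean of 7 dendritic and MHC class II markers was 8.55 to 9.23 at day 0 and 7.00 to 7.73 later. Means of B cell, NK and CD8 T cell markers ranged over 5.84 to 6.59, 5.12 to 6.63 and 7.12 to 8.22.

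The 250 bases before a RefSeq start (GRCm38.p6) are given, to show which letters of the SREBP, E-box and NF-Y motifs they hold. Binding was not measured. They cover the 3 members with a sequence that were called in most comparisons, Elovl6, Acaca and Fads2. Hmgcs1 and Insig1 were added after the data were seen, as textbook SREBP targets. The start is the gene start except for Acaca, whose window lies inside the gene. All bases are written 5′ to 3′ on the strand of the gene. Capitals mark an SREBP site (TCACNCCAC), an E-box (CACGTG) or an NF-Y box (CCAAT, read ATTGG on the other strand). Windows lie at chr3:129532136-129532385 (+), chr11:84195188-84195437 (+), chr19:10101504-10101753 (-), chr13:119690101-119690350 (+) and chr5:28071162-28071411 (+), in the order printed.
Elovl6: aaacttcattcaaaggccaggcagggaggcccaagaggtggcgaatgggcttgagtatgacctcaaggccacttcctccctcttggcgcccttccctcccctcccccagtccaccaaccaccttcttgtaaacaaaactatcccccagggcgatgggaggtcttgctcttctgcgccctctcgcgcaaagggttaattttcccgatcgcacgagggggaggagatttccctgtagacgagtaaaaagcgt
Acaca: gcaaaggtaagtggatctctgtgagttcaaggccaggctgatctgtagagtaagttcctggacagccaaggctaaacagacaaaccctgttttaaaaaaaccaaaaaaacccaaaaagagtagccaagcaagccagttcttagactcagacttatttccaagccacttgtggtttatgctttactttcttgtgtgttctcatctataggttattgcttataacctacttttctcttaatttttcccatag
Fads2: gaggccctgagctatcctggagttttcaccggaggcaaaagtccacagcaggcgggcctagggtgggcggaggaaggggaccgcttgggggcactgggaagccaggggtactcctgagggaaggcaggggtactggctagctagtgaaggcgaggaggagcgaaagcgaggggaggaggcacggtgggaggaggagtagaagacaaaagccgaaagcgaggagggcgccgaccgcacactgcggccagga
Hmgcs1: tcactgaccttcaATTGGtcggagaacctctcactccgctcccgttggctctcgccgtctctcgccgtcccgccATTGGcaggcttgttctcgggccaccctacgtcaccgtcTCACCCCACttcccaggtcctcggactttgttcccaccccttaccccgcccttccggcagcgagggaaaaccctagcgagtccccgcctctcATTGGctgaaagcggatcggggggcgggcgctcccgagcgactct
Insig1: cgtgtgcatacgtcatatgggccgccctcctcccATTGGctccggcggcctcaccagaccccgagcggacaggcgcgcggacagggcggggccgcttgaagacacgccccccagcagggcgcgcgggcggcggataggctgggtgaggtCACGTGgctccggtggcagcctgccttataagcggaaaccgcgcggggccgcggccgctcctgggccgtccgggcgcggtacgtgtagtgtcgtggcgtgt
All 3 motifs were searched on both strands in the window from 250 bases before to 50 after the start. The table held windows for 25 of the 33 genes. The SREBP site was found in 1 of them, Hmgcs1, against 1.24% of all 32851 windows in the table. An E-box stood in 7 of 25 genes, Insig1 among them, against 7.15% of all windows, and an NF-Y box in 20 of 25, against 37.4%. The windows of Mvk held 5 NF-Y boxes, those of Hmgcs1 and Nsdhl 4, and those of Elovl6, Acaca and Fads2 none of the 3 motifs. A gene with several windows has several chances to match, and the Acaca window lies inside the span of the gene.

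Most of the 33 genes were higher in the cultured cells than after transfer. At day 0, before transfer, 25 of 33 genes in Th1 and 27 of 33 in Th17 stood above every later unstimulated array of the same type, beside 4492 and 4795 of all 19938 genes, and 28.6% and 32.8% of genes above the median gene in level. There is 1 array per group at day 0, so these are values without a test. Fads2 and Scd1 were far lower after transfer. Fads2, the delta-6 desaturase that starts the synthesis of long polyunsaturated fatty acids, read 10.55 in Th1 and 11.61 in Th17 at day 0, but 6.58 to 6.73 and 7.01 to 7.55 at day 5. Scd1, a stearoyl-CoA desaturase that makes monounsaturated fatty acids, read 7.22 and 9.76 at day 0, against 5.38 to 5.74 in Th1 and 5.21 to 5.68 in Th17 at day 5. Its relative Scd2 went from 12.63 to between 10.63 and 10.97 in Th17, and from 11.82 to between 11.38 and 11.72 in Th1. The Th17 culture was above the Th1 culture for all 3 of these genes. Over the 33, Th17 exceeded Th1 in culture by more than 1 log2 unit for 2 genes, Scd1 and Fads2, and fell short by as much for 1, Elovl5 (10.87 against 12.03), beside 2.73% and 1.81% of all genes.

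Sterol genes were also lower after transfer. Hmgcs1, the synthase that commits acetyl units to the mevalonate pathway, read 10.35 in Th1 and 10.06 in Th17 at day 0 and 8.98 to 9.46 at day 5. Idi1, an isomerase of the same pathway, read 10.13 and 10.35, against 8.63 to 9.22. Sqle, the epoxidase at the first oxygen-requiring step, read 10.40 and 10.42, against 8.76 to 9.53. No day 5 array reached the day 0 level of these 3 genes. The mean of day 5 lay more than 1 log2 unit below day 0 for 9 of 33 genes in Th1 and 13 of 33 in Th17. The same held for 3.92% and 5.01% of all genes, and the opposite for 0 of 33 against 1.19% and 2.13%. The median difference of the 33 genes was -0.46 in Th1 and -0.85 in Th17, beside 0.06 and 0.02 over all genes.

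A few genes went another way. Abcg1 was lower in culture, at 9.63 in Th1 and 10.01 in Th17, than on any later unstimulated array (10.16 to 11.04). Abca1 was higher there, at 8.52 and 8.53, against 6.74 to 7.83 later, although both export sterols. Acaca, the carboxylase that commits acetyl-CoA to fatty acid synthesis, lay below all later unstimulated arrays in Th1 (9.42 against 9.51 to 9.71) but above them in Th17 (10.11 against 9.05 to 9.42). The cell cycle marker mean, 11.63 and 11.59 at day 0, was not above day 5 (11.57 to 11.84). The Th17 culture also had the highest myeloid marker mean, 9.38, and the part of other cells in the day 0 levels was not tested. Fewer cells of a type and less RNA per cell cannot be told apart in bulk samples.

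**Figure D1:**
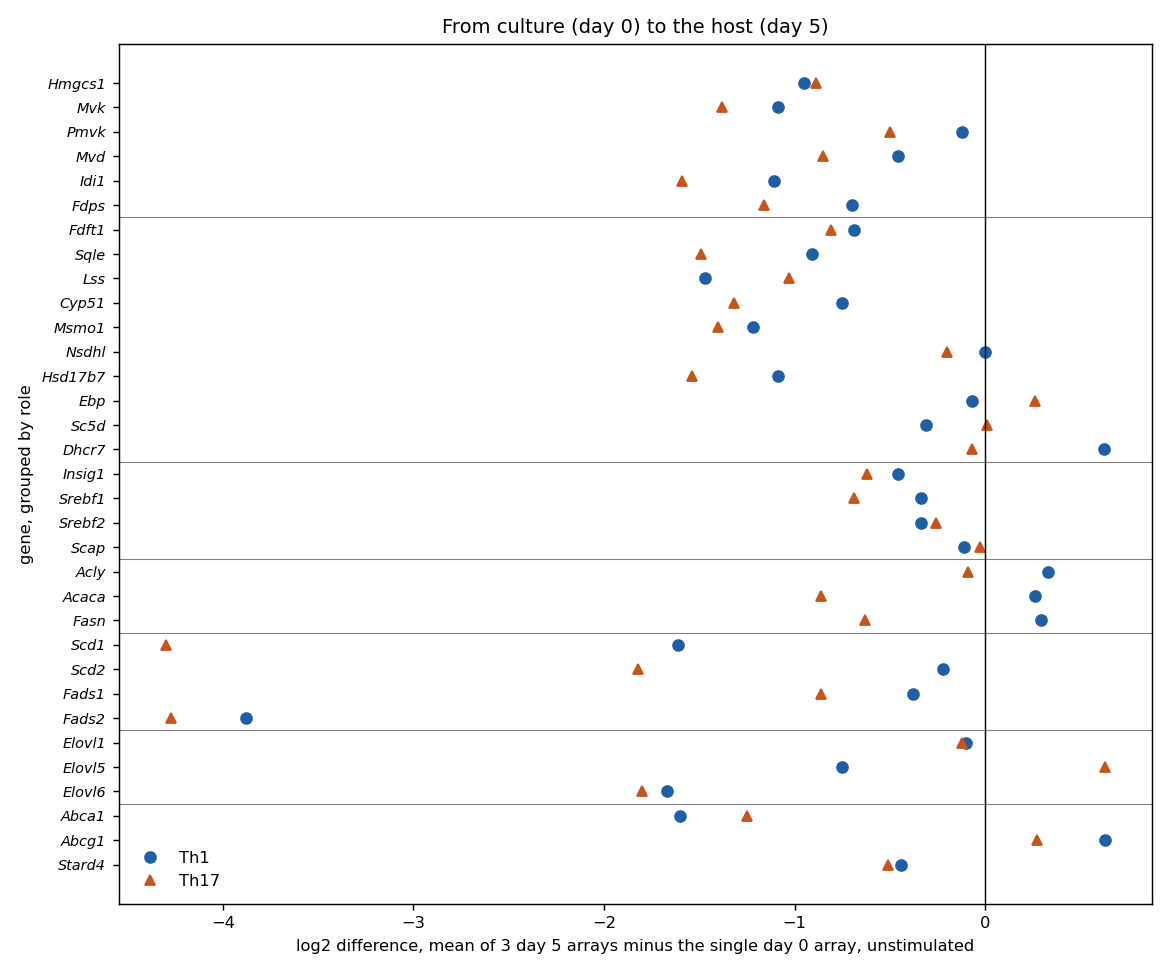
Difference in log2 RMA value between the mean of the 3 day 5 arrays and the single day 0 array, unstimulated, for the 33 genes grouped by role (circles Th1, triangles Th17). Fads2 lies at -3.88 and -4.27 and Scd1 at -1.61 and -4.30, while Abcg1 lies above 0 in both types.

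Restimulated cultures shared a direction for only some genes of the sterol pathway. Of the 16 genes of the mevalonate and squalene steps, 13 had a higher value after restimulation in the Th17 culture (median 0.56), beside 8293 of all 19938 genes. In the Th1 culture 10 had a lower one (median -0.15), beside 8170 of all genes, with Dhcr7, Ebp, Nsdhl and Lss lower by 0.60 to 0.85. In Th17, Cyp51 and Hsd17b7, which demethylate lanosterol and reduce a later sterol ketone, were higher by 1.13 and 1.17, and Insig1 by 1.12. Hmgcs1 went from 10.06 to 11.05, Msmo1 from 10.15 to 11.09 and Fdft1, the squalene synthase, from 10.95 to 11.88. Cyp51, Hmgcs1 and Msmo1 were higher in the Th1 culture too, by 0.64, 0.33 and 0.38, while Fdft1 differed by -0.03 in Th1. Idi1 and Sqle were higher in both cultures, by 0.39 and 0.45 in Th1 and by 0.73 and 0.65 in Th17. In Th1, Insig1 and Hsd17b7 were higher by 1.04 and 1.08, Acly by 1.37 and Fasn, the fatty acid synthase, by 1.26, while Mvk, Fads1, Elovl5, Elovl6 and Abcg1 were lower by more than 1. In all, 4 genes were past 1 upward and 5 downward in Th1 (3.69% and 5.72% of all genes), and 3 and 1 in Th17 (1.80% and 0.757%). Abcg1 differed by -1.48 in Th1 and -1.55 in Th17. Both cultures thus had lower Abcg1 and higher Insig1 after 2 h, each on a single pair of arrays.

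After transfer, restimulation was tested in 4 comparisons, and 1 gene stood against the rest. Insig1 (probe set 10520362) was higher in all 4 and passed the test at day 15, whereas every other call for restimulation was downward. In Th17 at day 15, Insig1 read 10.01, 9.71, 9.31 and 9.86 unstimulated and 10.67, 11.12, 10.57 and 10.89 restimulated. The groups did not overlap, and the difference was 1.09 ± 0.14 (SE, adjusted p = 1.27e-05). In Th1 at day 15 it read 10.02 and 9.54, then 10.57 and 10.47, a rise of 0.74 ± 0.20 (adjusted p = 0.0294). That call was lost without unstimulated replicate 2 (0.50) or restimulated replicate 1 (0.69), and also when only the compared groups were fitted. At day 5 the differences were 0.33 ± 0.17 in Th1 (adjusted p = 0.224) and 0.32 ± 0.17 in Th17 (adjusted p = 0.271). With the replicate number as a block, an alternative fit, they passed the test (adjusted p = 0.0165 and 0.0344). At day 15 the block kept the Insig1 call in Th17 (adjusted p = 0.00109) and lost it in Th1 (adjusted p = 0.136). Each sample was split, but the labels do not say whether equal replicate numbers mark parts of 1 sample. The main fit left any such pairing out.

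Fads1 (probe set 10461439), the delta-5 desaturase, was the only one of the 33 genes called lower in all 4 comparisons. Th1 arrays of day 5 read 10.20, 10.18 and 10.29 unstimulated and 9.81, 9.77 and 9.59 restimulated, a fall of -0.50 ± 0.10 (adjusted p = 0.00168). In Th17 at day 5 it read 10.12, 10.01 and 10.07, then 9.87, 9.77 and 9.61, a difference of -0.32 ± 0.10 (adjusted p = 0.0486). At day 15 Th1 read 9.88 and 9.78, then 9.28 and 9.22, and Th17 read 10.10, 10.03, 9.98 and 10.04, then 9.22, 9.38, 9.59 and 9.64. The falls were -0.57 ± 0.12 (adjusted p = 0.00629) and -0.58 ± 0.09 (adjusted p = 4.44e-05). The groups were apart in each comparison. Only the Th1 day 5 call was kept in every alternative. With the myeloid and erythroid marker means as covariates the others were lost, the Th17 day 15 call at adjusted p = 0.439. Fitting only the compared groups also lost the Th17 day 5 and Th1 day 15 calls, and the replicate block the Th1 day 15 call. The Th17 day 5 call was lost when any 1 array of that comparison was left out (adjusted p = 0.0518 to 0.204), and the Th1 day 15 call without unstimulated replicate 1 (-0.52, adjusted p = 0.0779).

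In Th1 at day 5, 6 of 33 genes fell and 0 rose, 18.2% lower beside 8.96% of all genes called lower and 4.07% called higher. All but 1 of the 33 lie above the median gene in level, and of genes above that median 16.9% were lower, so the share is close to that of genes above the median. At an unadjusted p under 0.05 there were 16 of 33, beside 4915 of all 19938 genes. The 6 that fell were Dhcr7, Lss, Ebp, Acly, Acaca and Fads1. Dhcr7, the last reductase of cholesterol synthesis, read 9.66, 9.62 and 9.65 unstimulated and 8.71, 8.97 and 8.84 restimulated (-0.80 ± 0.16, adjusted p = 0.00209). Lss, which closes the sterol rings, read 9.44, 9.54 and 9.49, then 8.70, 9.08 and 8.71 (-0.66 ± 0.19, adjusted p = 0.0213). Acly read 11.33, 11.37 and 11.42, then 11.04, 11.06 and 11.10 (-0.31 ± 0.07, adjusted p = 0.0064). With the replicate block as an alternative, 17 genes were called lower and Insig1 higher. No share of all genes called with the block is set beside this count, so it does not compare the 33 with other genes. Lss lost its call when any 1 of 5 arrays was left out (adjusted p = 0.0534 to 0.0952) and Ebp with any of the 6 (0.0564 to 0.124). Cell cycle markers fell in 5 of 11 cases too, and their part in the result was not tested.

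In Th17 at day 5, 3 of 33 genes fell (9.09%), and 0 rose, beside 4.08% of all genes lower and 3.99% higher and 7.52% of genes above the median lower. At an unadjusted p under 0.05 there were 9 of 33, beside 4302 of all 19938 genes. The 3 that fell were Dhcr7 (-0.58 ± 0.16, adjusted p = 0.0296), Acly (-0.24 ± 0.07, adjusted p = 0.0476) and Fads1. Dhcr7 read 9.34, 9.07 and 9.39, then 8.41, 8.87 and 8.77, with no overlap. With the block, 3 genes were higher (Cyp51, Msmo1, Insig1) and 3 lower (Lss, Dhcr7, Fads1), again with no share of all genes beside them. None of the 3 calls was kept on leaving out each array. There were 0 calls without unstimulated replicate 3, without restimulated replicate 1 or without restimulated replicate 3. Dhcr7 alone was called without unstimulated replicate 2, Dhcr7 and Msmo1 (higher) without restimulated replicate 2, and Acaca alone, which is not among the 3, without unstimulated replicate 1. Leaving out both arrays numbered 1, which carry the highest myeloid marker levels, also gave 0 calls, with Dhcr7 at -0.41.

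At day 15 in Th1, 6 of 33 fell and 1 rose, 18.2% lower beside 4.63% of all genes and 8.49% of genes above the median, and 3.03% higher beside 2.65%. Besides Insig1, Fads1 and Fads2 these were Sqle (-0.60 ± 0.15, adjusted p = 0.0162), Lss (-0.87 ± 0.23, adjusted p = 0.0232), Acaca (-0.39 ± 0.11, adjusted p = 0.0378) and Elovl6 (-0.72 ± 0.18, adjusted p = 0.0201). Lss read 9.31 and 9.35, then 8.12 and 8.80, and Sqle 8.98 and 8.81, then 8.45 and 8.14. Each group has 2 arrays, and none of the 7 calls was kept on leaving out every array in turn. Without unstimulated replicate 1 a single gene was called, without unstimulated replicate 2 there were 2 and without restimulated replicate 1 there were 3.

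At day 15 in Th17, 14 of 33 fell (42.4%) beside 11.1% of all genes and 16.3% of genes above the median, and 1 rose (3.03%) beside 6.49%. All 4 desaturases fell. Scd1 read 7.03, 6.16, 5.73 and 6.44 unstimulated and 5.22, 5.13, 5.13 and 5.87 restimulated (-1.0 ± 0.21, adjusted p = 0.00157), with an overlap at the unstimulated value of 5.73. Scd2 read 10.90, 10.77, 10.48 and 10.96, then 10.34, 10.43, 10.18 and 10.51 (-0.42 ± 0.11, adjusted p = 0.0128). Fads2 had the largest fall of the 33 genes, described with its time course. Of the others, Fdps, Fdft1, Sqle and Hsd17b7 fell by 0.33 to 0.44, Srebf2 by 0.26, and Acly, Acaca, Elovl1, Elovl6 and Stard4, a sterol carrier, by 0.19 to 0.43. Stard4 read 8.88, 8.97, 8.80 and 8.85, then 8.39, 8.57, 8.65 and 8.58. Of the 15 calls, 7 were kept on leaving out each array: Sqle, Insig1, Srebf2, Scd1, Fads1, Fads2 and Stard4. Insig1 alone was kept in every alternative. Cell cycle markers fell in 5 of 11 cases. Hmgcs1 read 9.29, 9.32, 9.08 and 9.33, then 9.08, 9.38, 9.14 and 9.07, and did not pass (adjusted p = 0.616).

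The erythroid markers moved with this result. All 5 fell with restimulation in Th17 at day 15 (median -1.09) and 3 of 5 in Th1 (median -0.79), against 0 of 5 in Th1 at day 5. With the myeloid and erythroid marker means as covariates, 2 of 33 genes were called in Th17 at day 15, Insig1 (1.82 ± 0.32, adjusted p = 0.00535) and Idi1, both higher. Fdft1, Sqle, Scd1 and Scd2 turned to 0.37, 0.10, 0.57 and 0.02, and Fads2 went from -1.63 to -0.24 (adjusted p = 0.564). In Th1 at day 15 the covariates left Insig1 (1.13 ± 0.24, adjusted p = 0.023) as the only call. Covariates that follow the condition this closely widen the error, so they do not separate the marker level from the restimulation. The Th17 count was 9 without restimulated replicate 1 and 9 when arrays were centred on their medians. No share of all genes is set beside these counts or those with the covariates, so they do not compare the 33 with other genes.

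**Figure D2:**
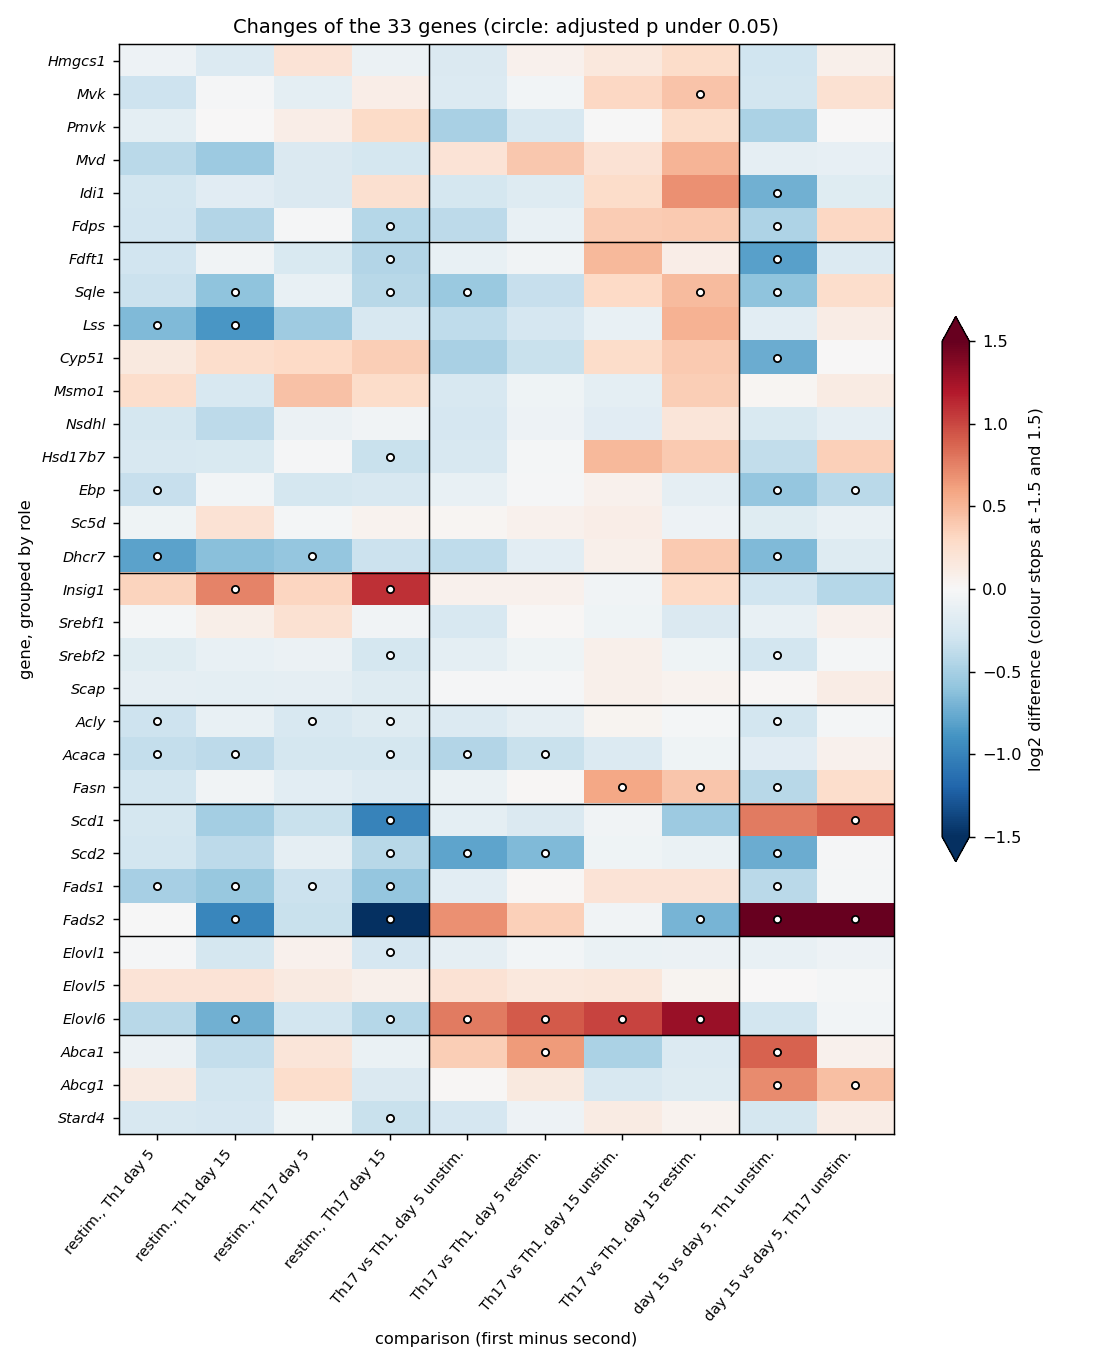
Log2 difference of each of the 33 genes (rows, grouped by role) in the 10 pairwise comparisons (columns, first minus second). Red is higher and blue lower, and circles mark calls at an adjusted p under 0.05. Insig1 is red in the 4 restimulation columns where Fads1 is blue, and Elovl6 is red in the 4 columns of Th17 against Th1.

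No gene of the 33 was shown to respond differently to restimulation in Th17 than in Th1. The limma interaction called 0 of 33 at day 5 (0.0201% of all genes higher, 0.00% lower) and 0 of 33 at day 15 (0.00% and 0.00%). At an unadjusted p under 0.05 there were 0 and 4, beside 490 and 1216 of all 19938 genes. Between days, the interaction called 0 of 33 in Th1 (0.00502% higher and 0.0201% lower over all genes). At an unadjusted p under 0.05 there were 2 of 33 in Th1, beside 843 of all 19938 genes. In Th17 the interaction called 1, Fads2, lower, beside 0.441% higher and 0.732% lower. Insig1 differed by 0.76 between days in Th17 without passing the test.

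Between the helper types, Elovl6 (probe set 10495993) differed throughout. This elongase lengthens palmitate to stearate, and it was higher in Th17 in all 4 comparisons with groups apart each time. At day 5 it read 9.12, 8.71 and 8.99 in Th17 and 8.24, 8.17 and 8.07 in Th1 (0.78 ± 0.15, adjusted p = 0.00205). After restimulation it read 8.70, 8.45 and 8.82 against 7.82, 7.80 and 7.60 (0.92 ± 0.15, adjusted p = 3.40e-04). At day 15 it read 8.98, 8.83, 8.95 and 8.84 against 7.98 and 7.81 (1.01 ± 0.16, adjusted p = 2.77e-04). Restimulated arrays of day 15 read 7.99, 8.73, 8.67 and 8.49 against 7.02 and 7.34 (1.29 ± 0.16, adjusted p = 1.04e-05). The lowest Th17 array of each comparison was above the highest Th1 array. The cultures had the same order, 10.74 against 9.83. With the marker covariates the unstimulated day 5 difference was 0.63 (adjusted p = 0.136), and the other 3 calls were kept in every alternative.

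In contrast, Scd2 was lower in Th17 at day 5. It read 10.63, 10.81 and 10.97 in Th17 and 11.38, 11.72 and 11.69 in Th1 (-0.79 ± 0.13, adjusted p = 4.27e-04), and restimulated 10.66, 10.47 and 10.87 against 11.38, 11.41 and 11.18 (-0.66 ± 0.13, adjusted p = 0.00297). No Th17 array reached a Th1 array. At day 15 the types overlapped, at 10.48 to 10.96 in Th17 and 10.95 and 10.75 in Th1. In culture the order was the other way, 12.63 in Th17 and 11.82 in Th1. These values concern a gene with close relatives, and probes of Scd1 and Scd2 may share signal.

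Counts between types were small. At day 5 unstimulated, 1 gene was higher in Th17 and 3 lower, 3.03% beside 2.31% and 9.09% beside 1.32% of all genes. The lower ones besides Scd2 were Sqle (9.14, 8.76 and 8.90 against 9.50, 9.53 and 9.46, -0.56 ± 0.12, adjusted p = 0.00676) and Acaca (-0.44 ± 0.09, adjusted p = 0.00453). Acaca was not called without Th17 replicate 1 (-0.34, adjusted p = 0.056). Of 16 genes of the mevalonate and squalene steps, 14 had a lower mean in Th17 here, beside 12242 of all 19938 genes, although 1 passed. After restimulation at day 5, 2 were higher and 2 lower, 6.06% each beside 2.95% and 1.02%. Abca1 was higher in Th17, at 7.41, 7.18 and 7.78 against 6.84, 6.86 and 6.76 (0.64 ± 0.13, adjusted p = 0.00283), and Acaca lower (-0.33 ± 0.09, adjusted p = 0.0375). Acaca lost this call when any 1 of the 6 arrays was left out (adjusted p = 0.0604 to 0.166). With the replicate block as an alternative, Mvd was also called higher and Sqle lower. The myeloid marker mean was 6.87 to 8.67 on the Th17 and 6.43 to 6.84 on the Th1 arrays of day 5, and its part was not tested for single genes beyond the covariate fit.

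At day 15 most calls between the types were higher in Th17, with Fads2 lower after restimulation. Unstimulated, 2 genes were higher in Th17 and 0 lower (6.06% beside 1.88%, and 0.00% beside 2.28%). At an unadjusted p under 0.05 there were 10, beside 2909 of all 19938 genes. Fasn read 11.12, 11.19, 11.14 and 11.19 in Th17 and 10.53 and 10.64 in Th1 (0.58 ± 0.11, adjusted p = 0.00138), and Elovl6 was the other. After restimulation 4 were higher and 1 lower, 12.1% beside 3.45% and 3.03% beside 2.98%. The higher ones were Elovl6, Fasn (0.42 ± 0.11, adjusted p = 0.0143), Sqle (0.48 ± 0.13, adjusted p = 0.0247) and Mvk (0.43 ± 0.12, adjusted p = 0.0366), and Fads2 was lower (-0.70 ± 0.21, adjusted p = 0.0452). The Fads2 call was lost without Th1 replicate 1 (-0.44, adjusted p = 0.434) or Th17 replicate 1, 2 or 3 (adjusted p = 0.0593 to 0.133) and turned to 0.37 with the marker covariates. Sqle read 8.48, 9.01, 8.73 and 8.87 against 8.45 and 8.14. Elovl6 was the only one of the 5 calls kept on leaving out each array. The count ran from 1 without Th17 replicate 2 and 2 without Th1 replicate 1 to 8 without Th1 replicate 2 and 9 without Th17 replicate 1, and it was 3 without Th17 replicate 4. Unstimulated, it was 4 without Th17 replicate 3. These counts have no share of all genes beside them either. Other lists differed between the types on these arrays. Unstimulated, 5 of 5 NK markers were lower in Th17 (median -0.96), and 3 of 11 cell cycle and 3 of 14 myeloid markers were higher. Restimulated, 8 of 11 cell cycle markers were higher (median 0.49), and 4 of 5 erythroid (median -0.87) and 2 of 5 NK markers were lower. The part of NK and cell cycle markers in the result was not tested.

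**Figure D3:**
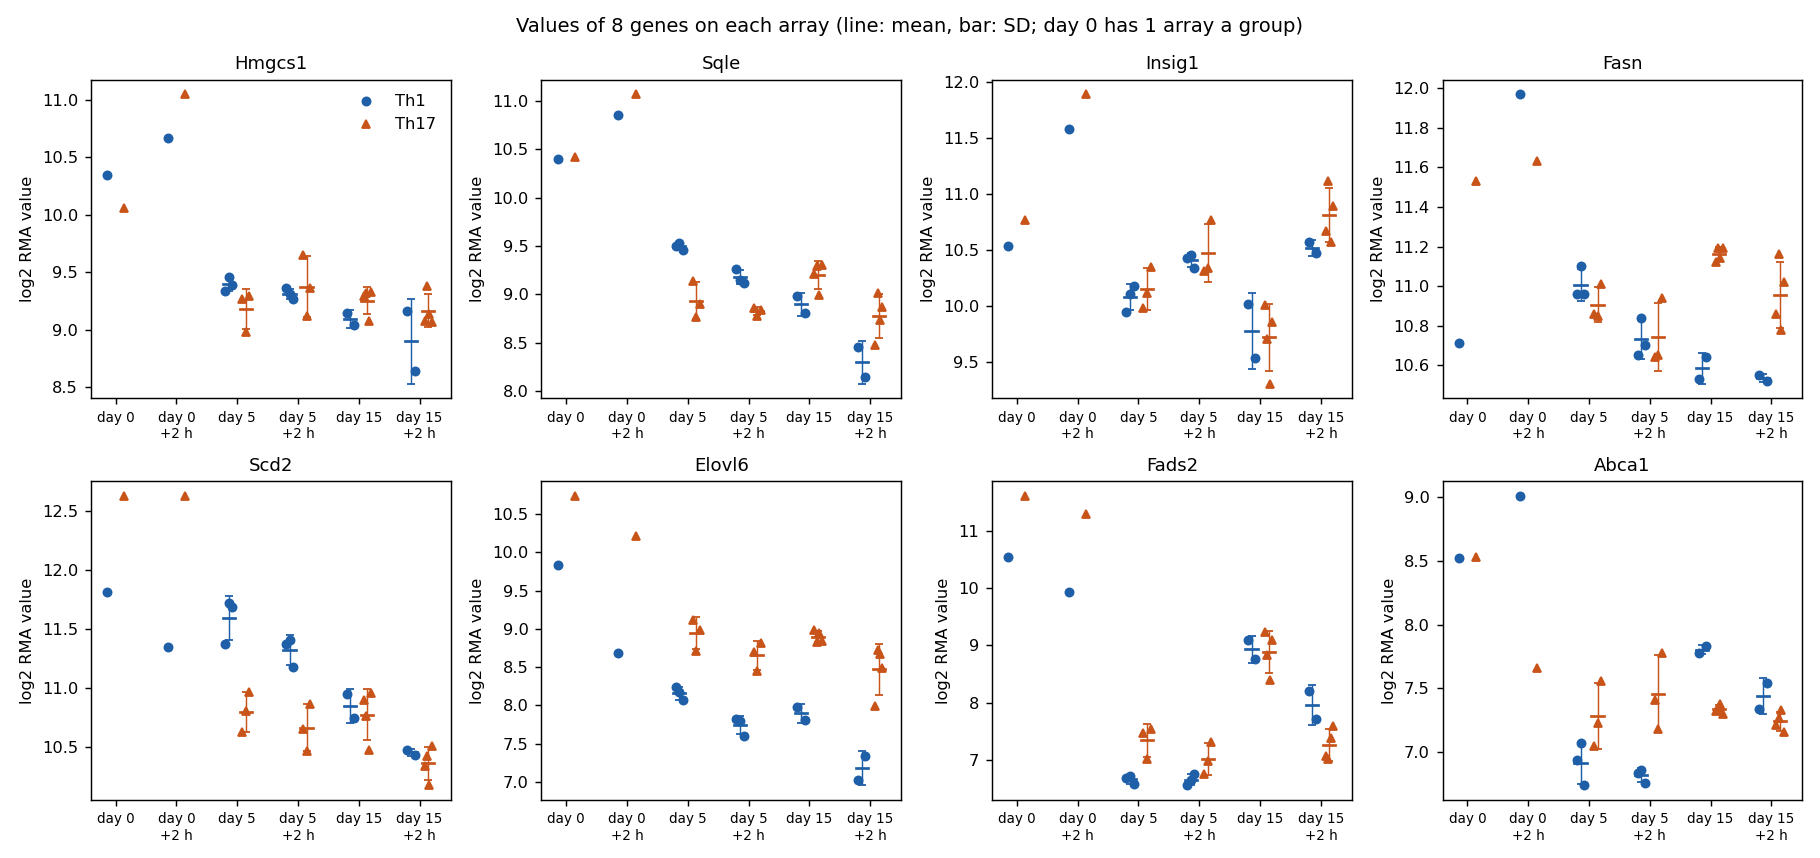
Log2 RMA values of 8 genes on each of the 28 arrays, by day and 2 h restimulation (circles Th1, triangles Th17; short lines are means and bars SD, with 1 array per group at day 0). Elovl6 triangles lie above the circles in each condition, and Fads2 is high at day 0, low at day 5 and in between at day 15.

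Sterol synthesis genes were lower at day 15 than at day 5 on Th1 arrays. In Th1, 12 of 33 genes fell (36.4%) beside 8.72% of all genes and 16.2% of genes above the median, and 3 rose (9.09%) beside 7.33%. In Th17, 1 fell (3.03%) beside 5.28% and 3 rose (9.09%) beside 4.37%. The median difference was -0.27 in Th1 and 0.01 in Th17, beside 0.00 and 0.05 for all genes. All 16 genes of the mevalonate and squalene steps except Msmo1 had a lower mean at day 15 in Th1, beside 9857 of all 19938 genes. Of these 16, 7 passed the test, but none is among the calls kept on leaving out each array. On the same arrays 5 of 5 erythroid markers (median 2.27) and 4 of 5 NK markers (median 0.89) were higher at day 15 and 10 of 11 cell cycle markers lower. In Th17, 5 of 5 erythroid markers (median 1.90) and 0 of 5 NK markers were higher. The part of these markers in the result was not tested.

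Fdft1 read 10.26, 10.20 and 10.28 at day 5 and 9.48 and 9.39 at day 15 in Th1 (-0.81 ± 0.19, adjusted p = 0.00382). In Th17 it read 10.53, 9.77 and 10.11, then 10.28, 9.92, 9.49 and 10.02. Cyp51 read 8.65, 8.79 and 8.78, then 7.99 and 7.99 in Th1 (-0.75 ± 0.19, adjusted p = 0.00797). Th17 arrays had 8.39, 7.89 and 8.48 at day 5 and 8.28, 8.43, 7.88 and 8.44 at day 15. The Th1 days were apart for both genes and the Th17 days overlapped. Scd2 fell in Th1 from 11.38, 11.72 and 11.69 to 10.95 and 10.75 (-0.75 ± 0.15, adjusted p = 7.97e-04). Idi1, Fdps, Sqle, Ebp, Dhcr7, Srebf2, Acly, Fasn and Fads1 fell in Th1 by 0.27 to 0.72. Ebp, a sterol isomerase, also fell in Th17 (-0.41 ± 0.10, adjusted p = 0.00997), a call lost without day 5 replicate 1 (-0.34, adjusted p = 0.0806). Of the 15 Th1 calls, 4 were kept on leaving out each array: Scd2, Fads2, Abca1 and Abcg1. Without Th1 day 15 replicate 1 there were 9 calls, and without replicate 2 there were 6.

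The difference between the types in this change was tested as an interaction of type and day. It called 3 genes higher (9.09%) and 1 lower (3.03%), beside 0.577% and 0.562% of all genes. A positive value means that Th17 fell less or rose more. Sqle had 0.86 ± 0.18 (adjusted p = 0.014). It read 9.50, 9.53 and 9.46 at day 5 and 8.98 and 8.81 at day 15 in Th1, but 9.14, 8.76 and 8.90, then 9.21, 9.29, 8.99 and 9.30 in Th17. Fdps, which makes farnesyl diphosphate, had 0.77 ± 0.19 (adjusted p = 0.0475). Its Th1 values were 10.02, 10.16 and 10.10, then 9.66 and 9.60, and its Th17 values 9.80, 9.64 and 9.68, then 9.97, 9.97, 10.04 and 10.08. Fasn had 0.68 ± 0.14 (adjusted p = 0.0193). Abca1 had -0.83 ± 0.18 (adjusted p = 0.024), and its days are given with the exporters.

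The interaction was positive for all 6 mevalonate and all 10 squalene genes, beside 11876 of all 19938 genes. Medians were 0.50 and 0.37 beside 0.05 over all genes, though 2 of the 16 passed. None of the 4 calls was kept on leaving out each array. Without Th1 day 15 replicate 2 there were 0 calls (Sqle 0.78, adjusted p = 0.157), and without replicate 1 there was 1. There were 2 without Th1 day 5 replicate 1, 2 or 3 or without Th17 day 5 replicate 2 or 3. Fdps was not called when any 1 array was left out (adjusted p = 0.0511 to 0.265). Cell cycle markers moved alongside: 10 of 11 fell from day 5 to day 15 in Th1 (median -0.95) and 6 of 11 in Th17 (median -0.43), and their part in the result was not tested.

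**Figure D4:**
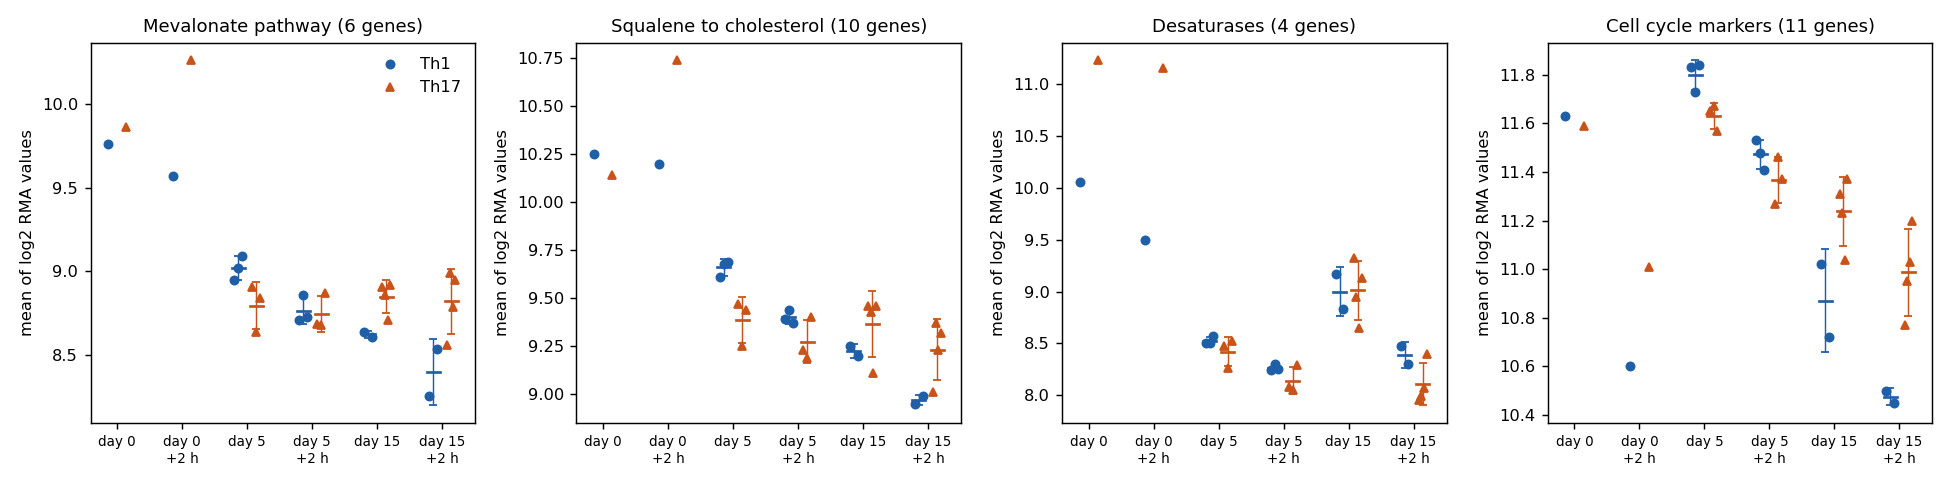
Mean log2 RMA value per array of the mevalonate genes, the squalene to cholesterol genes, the desaturases and, for comparison, 11 cell cycle markers (circles Th1, triangles Th17; lines are means, bars SD). Both sterol groups lie highest at day 0, and in Th1 they are lower at day 15 than at day 5.

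Abca1 and Abcg1 rose from day 5 to day 15 in Th1. Abca1 read 6.94, 7.07 and 6.74 at day 5 and 7.78 and 7.83 at day 15 (0.89 ± 0.14, adjusted p = 8.15e-05), and in Th17 7.05, 7.23 and 7.56, then 7.32, 7.35, 7.38 and 7.30 (0.06 ± 0.12, adjusted p = 0.794). Abcg1 read 10.20, 10.35 and 10.23, then 10.91 and 11.04 in Th1 (0.71 ± 0.11, adjusted p = 7.80e-05). In Th17 it read 10.16, 10.26 and 10.43, then 10.80, 10.70, 10.82 and 10.62 (0.45 ± 0.09, adjusted p = 0.00304). The days were apart for Abcg1 in both types, and for Abca1 in Th1. Erythroid markers rose in both types and NK markers in Th1 between the same days, and their part in the exporters was not tested.

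Desaturases split at day 15. Fads2 (probe set 10465895) rose in both types, in Th1 from 6.69, 6.73 and 6.58 to 9.10 and 8.77 (2.27 ± 0.22, adjusted p = 1.13e-07). In Th17 it rose from 7.47, 7.01 and 7.55 to 9.24, 8.83, 8.40 and 9.09 (1.54 ± 0.18, adjusted p = 3.80e-06). Scd1 rose in Th17 from 5.68, 5.21 and 5.49 to 7.03, 6.16, 5.73 and 6.44 (0.88 ± 0.22, adjusted p = 0.014), a call lost without day 5 replicate 2 (0.75, adjusted p = 0.0779). In Th1, Scd1 differed by 0.78 ± 0.27 (adjusted p = 0.0508). It is a dim gene here, at the 20.7 percentile of gene means, with no detection calls used. Fads1, which acts after Fads2 on the same chain, fell in Th1 and differed by -0.03 in Th17.

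Fads2 was lower on restimulated than on unstimulated arrays at day 15. Th17 arrays went from 9.24, 8.83, 8.40 and 9.09 to 7.07, 7.01, 7.39 and 7.59 (-1.63 ± 0.17, adjusted p = 5.11e-07), and Th1 arrays from 9.10 and 8.77 to 8.21 and 7.71 (-0.98 ± 0.24, adjusted p = 0.0157). With the myeloid and erythroid marker covariates, the day 15 differences were -0.24 in Th17 (adjusted p = 0.564) and -0.23 in Th1 (adjusted p = 0.595). At day 5 the difference without covariates was -0.01 in Th1 and -0.33 in Th17. The Th17 response differed between the days by -1.30 ± 0.26 (adjusted p = 0.0109), a call kept on leaving out each array. The Th1 call was lost without unstimulated replicate 1 (-0.81, adjusted p = 0.162) or restimulated replicate 2 (-0.72, adjusted p = 0.101).

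Fads2 and the erythroid markers were set side by side at day 15. Unstimulated arrays had an erythroid mean of 9.22 and 9.55 in Th1 and of 8.69 to 9.38 in Th17, with Fads2 between 8.40 and 9.24. The lowest unstimulated Fads2 value, 8.40, was on the array with the lowest erythroid mean of its group, 8.69. Restimulated Th17 arrays had an erythroid mean of 7.84 to 8.10 and Fads2 of 7.01 to 7.59, and restimulated Th1 arrays were between, at 8.56 and 9.04 with 7.71 and 8.21. In the cultures Fads2 was 9.93 to 11.61 while the erythroid mean was 6.98 to 7.31. Fads1 read 9.28 and 9.22 on restimulated Th1 and 9.22 to 9.64 on restimulated Th17 arrays of day 15. The day 15 change in Fads2 and Scd1 and that in the erythroid markers cannot be told apart by day in these samples.

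**Figure D5:**
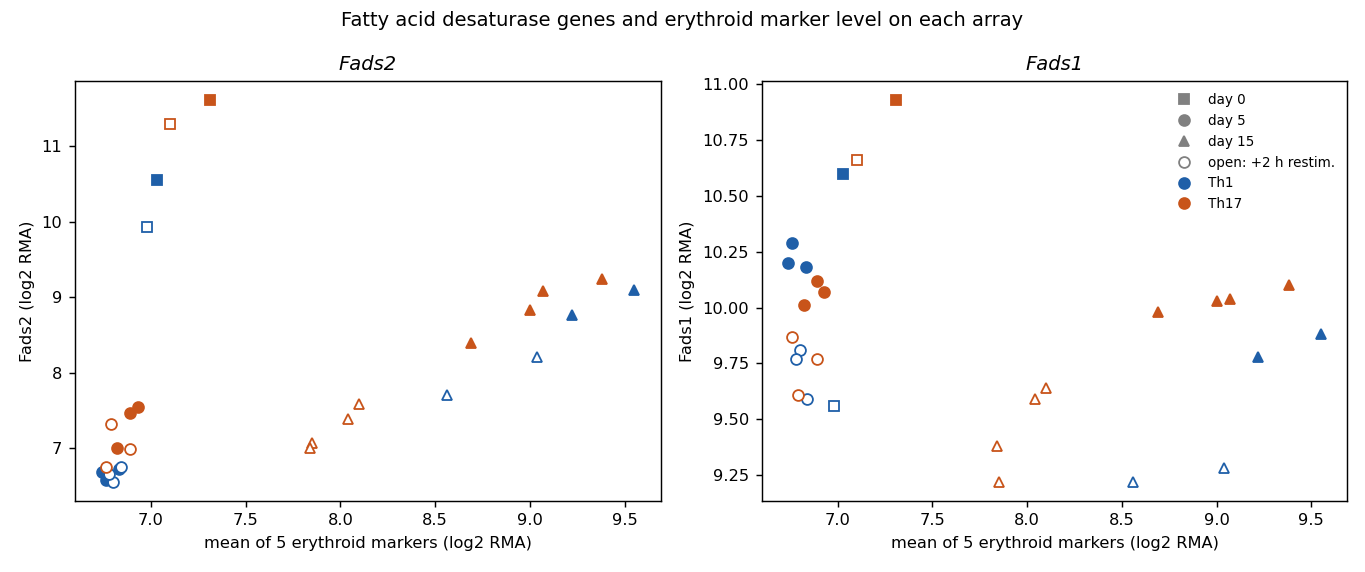
Fads2 (left) and Fads1 (right) against the mean of 5 erythroid markers on each array, all log2 RMA values (squares day 0, circles day 5, triangles day 15; blue Th1, orange Th17; open symbols restimulated). At day 15 Fads2 lies between 7.01 and 9.24, and at day 0 between 9.93 and 11.61 at an erythroid mean of 6.98 to 7.31.

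Of the genes of SREBP control besides Insig1, Srebf2 was called and Srebf1 and Scap were not. Srebf1 ran from 9.60 to 10.14 on all arrays after transfer and was called in none of the 10 comparisons. Srebf2 ran from 11.12 to 11.67 and was called lower in 2, restimulated Th17 at day 15 (-0.26 ± 0.07, adjusted p = 0.0125) and Th1 at day 15 against day 5 (-0.27 ± 0.09, adjusted p = 0.0445). The latter was lost without any 1 of the 5 arrays (adjusted p = 0.0551 to 0.269). Scap ran from 10.51 to 10.92 with no call. Over the 10 comparisons 24 of 33 genes were called at least once and 9 never: Hmgcs1, Pmvk, Mvd, Msmo1, Nsdhl, Sc5d, Srebf1, Scap and Elovl5. Pmvk and Mvd complete the mevalonate steps, Msmo1, Nsdhl and Sc5d modify the sterol rings, and Elovl5 lengthens polyunsaturated fatty acids. The largest difference of any of these 9 was -0.55, for Mvd with restimulation in Th1 at day 15.

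Of 56 further genes of the pathways, 45 were measured and the rest were not analysed here. With restimulation 4 rose (8.89% beside 4.07% of all genes) and 7 fell (15.6% beside 8.96%) in Th1 at day 5. In Th1 at day 15, 1 rose (2.22% beside 2.65%) and 9 fell (20.0% beside 4.63%). Among Th17 arrays of day 5, 2 rose (4.44% beside 3.99%) and 5 fell (11.1% beside 4.08%), and at day 15, 1 rose (2.22% beside 6.49%) and 14 fell (31.1% beside 11.1%). Dgat1, which makes triglyceride, rose in all 4 comparisons (0.62, 1.51, 1.01 and 1.28; adjusted p = 0.0497, 0.00111, 0.00399 and 2.29e-05). Acat1, a mitochondrial thiolase, fell by 0.64 in Th1 at day 5 (adjusted p = 5.60e-04) and 0.43 in Th17 at day 5 (adjusted p = 0.0182), and Gpam, the first acyltransferase of glycerolipid synthesis, by 0.55 and 0.47. Between types, Tmem97, a sterol-responsive membrane protein, was lower in Th17 at day 5 (-0.67, adjusted p = 0.00216). Counts for Th17 against Th1 were 0 higher and 1 lower at day 5, 1 and 0 when restimulated, 0 and 2 at day 15, and 0 and 1 when restimulated, or at most 2.22% higher and 4.44% lower, where 1.02% to 3.45% of all genes were called in a direction.

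From day 5 to day 15, 9 of these 45 genes rose (20.0% beside 7.33% of all genes) and 7 fell (15.6% beside 8.72%) in Th1. In Th17, 6 rose (13.3% beside 4.37%) and 4 fell (8.89% beside 5.28%). Abcg4, a sterol exporter, rose by 1.99 in Th1 (adjusted p = 5.75e-10) and 1.82 in Th17 (adjusted p = 1.58e-10). Fads3, the neighbour of Fads2 on chromosome 19, rose by 1.72 and 1.38, and Acss2, which makes acetyl-CoA from acetate, by 1.44 and 0.99. Tmem97 fell by 1.27 in Th1 (adjusted p = 1.17e-06), and its interaction of type and day was 0.85 (adjusted p = 0.0248). Fabp5, a fatty acid binding protein, fell by 0.80 in Th1 and 0.82 in Th17. On restimulated Th17 arrays of day 15, Fads3 (-1.08, adjusted p = 7.04e-07) and Abcg4 (-0.80, adjusted p = 1.08e-05) were lower, and the 5 erythroid markers fell on the same arrays.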

How the data were processed

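The data are 28 Affymetrix arrays of mouse RNA. The authors deposited log2 values made by RMA in Affymetrix Expression Console, per the submitters' processing notes. The sources used here do not give versions, a genome build or which arrays were normalised together. RMA subtracts background, equalises array distributions and combines the probes of a probe set, so a change shared by most genes is removed. Array medians ran from 6.77 to 7.09, and no further normalisation was applied.

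Of 35556 probe sets, 21789 had 1 gene symbol, 1621 several and 12146 none, and the first kind gave 19938 genes. For the 999 genes with more than 1 probe set, Idi1, Fdft1 and Acaca among the members, the one with the highest mean was used. A model with 1 coefficient for each of 8 groups was fitted to 24 arrays with limma 3.58.1 (lmFit, eBayes) in R 4.3.3. It left 16 residual degrees of freedom, and p-values were adjusted by Benjamini-Hochberg over all genes. Day 0 arrays were described without a test. Members and lists were chosen with earlier results of these data known. The fit was checked on simulated data.

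Named with values are up to 3 called members each way per comparison with the largest change, a panel of 13 members whatever their change, and up to 4 other pathway genes per comparison. Values of some of these are summarised as ranges. Other members are named by range, or where a result turns on them. Arrays with equal replicate numbers were checked for shared deviations from the group means over 9969 genes. For restimulation, correlations were all over 0.1 at day 5 in Th1 (0.16 to 0.22) and Th17 (0.38 to 0.47). This also held at day 15 in Th1 (0.13 and 0.13), but not at day 15 in Th17 (-0.16 to 0.21). Correlations were all over 0.1, too, between the types after restimulation at day 5 (0.22 to 0.48) and between days in Th1 (0.28 and 0.21). Those arrays are not parts of 1 sample, so the check cannot show pairing. The block is given as an alternative only. Alternatives were cyclic loess, centring on array medians, genes above the median, the mean of all probe sets, only the compared groups, a replicate block, myeloid and erythroid marker covariates, both arrays of Th17 day 5 replicate 1 left out, and each array left out. Counts of members called in an alternative have no share of all genes beside them, so they do not compare the members with other genes. Promoter sequences are from RefSeq, GRCm38.p6.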

Additional observations from a re-analysis of the deposited data

Results flagged for a closer look

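Some values stood apart within a group of 4 arrays, by the gap to the nearest array relative to the range of the group. On Th17 day 15 replicate 3, Hmgcs1 read 9.08 (others 9.29 to 9.33), Nsdhl 10.05 (others 10.36 to 10.39) and Elovl5 11.31 (others 11.51 to 11.53). On restimulated Th17 day 15 replicate 1, Pmvk read 7.46 (others 8.01 to 8.03) and Dhcr7 8.40 (all others 8.87). On restimulated Th17 day 15 replicate 4, Scd1 read 5.87 (others 5.13 to 5.22). In 66 such checks over both groups and all members, chance flags about 1 in 20.

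Effects that differed between groups by the limma interaction were Fads2 with restimulation in Th17 between days (-1.30, adjusted p = 0.0109), and, for type and day among unstimulated arrays, Fdps (0.77, adjusted p = 0.0475), Sqle (0.86, adjusted p = 0.014), Fasn (0.68, adjusted p = 0.0193) and Abca1 (-0.83, adjusted p = 0.024).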

How the results depend on the processing

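Of 70 calls of members in the 15 comparisons, 19 were kept in every alternative, 50 were lost in at least 1, and 5 turned in sign with the marker covariates; the cause of these changes was not tested. No share of all genes is set beside the alternative counts here, so they do not compare the members with other genes. Members called for restimulation in Th1 at day 5 were 6, with 10 among genes above the median, 13 when only the compared groups were fitted and 18 with the replicate block. In Th1 at day 15 the count of 7 went to 0 with only the compared groups, 0 with the block and 1 with the marker covariates. In Th17 at day 5 the count of 3 went to 1 with only the compared groups (Dhcr7), to 6 with the block (2 of the 3 among them), to 1 with the covariates (Msmo1, higher, none of the 3) and to 0 without both arrays of replicate 1. In Th17 at day 15 the count of 15 went to 9 when centred, 8 with only the compared groups, 5 with the block and 2 with the covariates. For Th17 against Th1, the count of 4 at day 5 unstimulated went to 8 with only the compared groups. At day 15 unstimulated, 2 went to 4 with loess, 4 among genes above the median and 7 with the block, and restimulated 5 went to 3 when centred, 1 with only the compared groups and 3 with the covariates. From day 5 to day 15 in Th17, 4 went to 2 with only the compared groups, and for restimulation between days in Th17 1 went to 2 with loess. Leaving out single arrays gave 4 to 5 and 1 to 8 for restimulated Th1 (day 5, day 15), 0 to 2 and 9 to 16 for Th17. It gave 3 to 5 for Th17 against Th1 at day 5 and 3 each time when restimulated, 2 to 4 and 1 to 9 at day 15, 6 to 13 from day 5 to day 15 in Th1, 3 to 5 in Th17, and 0 to 5 for type and day. Reversed with the covariates were Fdft1 (0.37), Sqle (0.10), Scd1 (0.57) and Scd2 (0.02) for restimulated Th17 at day 15, and Fads2 (0.37) for restimulated Th17 against Th1 at day 15. Where correlations of equal replicate numbers were all over 0.1, the block moved the count by over 1.5 times for restimulation at day 5 in both types. It also took the 7 calls for restimulation in Th1 at day 15 to 0. Centred arrays gave median differences of -0.35 and -0.67 between day 0 and day 5 in Th1 and Th17, where the median of all genes moved to 0.16 and 0.20. Array number limits the precision, above all the 2 Th1 arrays per condition at day 15.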
